A study of Rattus norvegicus with 10 samples.

Results

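The stretch of rat chromosome 11 that holds Sept5 and Rtn4r was examined in the methyl-capture data of the amygdala stimulation model. Its members were chosen by position, as all regions of the tag count table that start at or after 83800000 and end at or before 85400000 on chromosome 11 of RN4. They numbered 447 of the 574544 regions in the table, and another 17764 regions lay elsewhere on chromosome 11. The bounds were drawn around 1 region in an intron of Sept5 and 1 in an intron of Rtn4r, both of which the study lists as changed in these rats, so the values of these regions are a description and support nothing here. Both passed through the fit with all other regions, and counts are therefore given with and without them. The SE group were male Sprague-Dawley rats with an electrode in the left lateral amygdala, stimulated electrically until status epilepticus (SE) that was stopped with diazepam. According to the methods all of them had spontaneous seizures. Controls were age-matched sham operated rats of the same strain and sex that carried the electrodes and received no stimulation. Tissue with CA3 and dentate gyrus of the left hippocampus, labelled dorsal hippocampus, was taken 3 months after SE, with 1 library per rat. Control rats 1, 3, 4 and 5 were compared with SE rats 6, 8, 9 and 10, and control rat 2 and SE rat 7, which carry the label discarded, are given beside them. The table holds DNA tags alone, so the labelled tissue could not be checked by marker genes.

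Methyl-capture pulls DNA fragments down with a methyl-CpG binding protein, so more tags in a region stand for more captured methylated DNA. The tissue is a mixture of neurons and glia, and a different mixture of cells and a different methylation within the cells cannot be told apart. Sept5 encodes a septin, a filament-forming GTP-binding protein found on synaptic vesicles, where it is known to restrain neurotransmitter release. Rtn4r encodes the Nogo receptor, a surface protein of neurons through which myelin proteins inhibit the growth of axons. Both genes belong to the stretch whose human counterpart is lost in DiGeorge syndrome, a deletion syndrome with heart defects and a raised risk of schizophrenia and seizures. In the RefSeq annotation of the GRCr8 assembly 12 protein-coding genes lie between them, among them Gp1bb, Tbx1, Txnrd2, Dgcr8, Ranbp1 and Zdhhc8. Tbx1 is a transcription factor of heart and pharyngeal development, Dgcr8 is a partner of Drosha in microRNA processing, and Zdhhc8 attaches palmitate to proteins. These genes are named as neighbours only, because no annotation of RN4 was used here and the regions between Sept5 and Rtn4r are therefore given by position.

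The 447 regions covered 248222 bp, or 15.5% of the interval, with lengths (end minus start) between 183 and 2848 bp and a median of 471 bp. Regions lay closer together than on the rest of the chromosome, with a median of 36 other regions within 50 kb on either side against 28. They were sparse in the first 400 kb, which held 27 regions, and dense in the last 1200 kb, which held 420. A region of the interval had a median of 9.63 tags per library, which leaves single regions with a wide counting error. The 8 libraries held between 5499370 and 7179519 tags in all and between 4162 and 6463 in the interval. Of the 447 regions, 256 had enough tags to be tested (a summed count in the upper part of the table), and 191 did not.

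More regions of the interval had higher than lower capture in SE rats. Of the 256 tested regions 5 (1.95%) were higher in SE rats with an unadjusted p below 0.01 (quasi-likelihood test of edgeR), beside 0.584% of all tested regions. In the opposite direction 1 region (0.391%) was lower, beside 1.07% of all tested regions. On the rest of chromosome 11 the counts leaned the other way, with 26 of 8728 regions (0.298%) higher and 147 (1.68%) lower. The Sept5 and Rtn4r regions, which set the bounds of the interval, are 2 of the 5, and without them 3 of 254 regions (1.18%) were higher. With p-values adjusted over the whole table by Benjamini-Hochberg, 0 regions of the interval had an adjusted p below 0.05 with the quasi-likelihood test, edgeR's exact test or DESeq2, beside 0.00616% of all tested regions, and the smallest adjusted p was 0.339. At an unadjusted p below 0.05 the quasi-likelihood test called 18 regions of the interval (7.03%), beside 6.90% of all tested regions, so the share called was near the background and the direction differed. In the interval 15 of the 18 were higher and 3 lower, and over all tested regions 8552 were higher and 11605 lower.

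The same lean was seen without a threshold on p. Every SE rat lay above every control rat in 14 regions of the interval (5.47%), beside 1.69% of all tested regions, and below every control rat in 3 (1.17%), beside 1.94%. Without the Sept5 and Rtn4r regions the former number was 12 of 254 (4.72%). The log2 fold change of SE over control was above 0 in 162 of the 256 tested regions (63.3%), with a median of 0.11 and quartiles of -0.11 and 0.35. On the rest of chromosome 11 it was above 0 in 43.8% of regions with a median of -0.06, and over all tested regions in 50.3% with a median of 0.0024. Neighbouring regions share their library and their local tag density and are not independent, so these counts describe the 8 libraries.

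**Figure D1:**
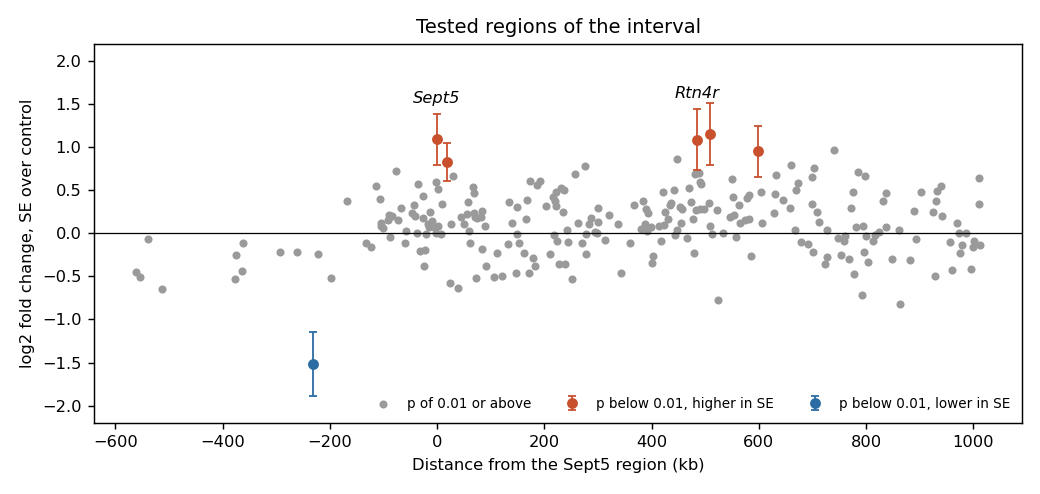
Log2 fold change (SE over control) of the 256 tested regions against their distance in kb from the Sept5 region. Coloured points are the 6 regions with an unadjusted p below 0.01 with their standard errors, 5 above 0 and 1, in the sparse first part, below it, and grey points are the other tested regions.

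The Sept5 region ran from 84366659 to 84367506. It held 12, 9, 13 and 9 tags in control rats 1, 3, 4 and 5, and 25, 20, 25 and 28 tags in SE rats 6, 8, 9 and 10. Each SE rat was above every control rat, and the SE rats were close to one another. The normalized count was 2.59 ± 0.673 CPM (SD, n = 4) in control and 5.49 ± 0.540 CPM (SD, n = 4) in SE rats, and the log2 fold change was 1.09 (standard error 0.30). The discarded rats, which had no part in the fit, went the other way, with 26 tags in control rat 2 and 25 tags in SE rat 7, although the library of rat 7 held 14655629 tags and that of rat 2 held 7154696.

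The tested regions on either side of the Sept5 region did not share its difference. The region 822 bp before it, from 84365301 to 84365837, held 6, 13, 10 and 8 tags in control and 10, 10, 3 and 17 tags in SE rats. The region 326 bp after it, from 84367832 to 84368825, held 28, 14, 18 and 22 tags in control and 19, 23, 28 and 22 in SE rats. In both the groups overlapped throughout, with log2 fold changes of 0.01 (standard error 0.39) and 0.09 (standard error 0.26).

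A second region near Sept5 did differ. It lay 19.1 kb from the start of the Sept5 region, from 84385787 to 84387130, and held 20, 19, 22 and 32 tags in control and 39, 50, 34 and 52 tags in SE rats. The SE rats were all above the control rats, with 5.46 ± 0.888 CPM in control and 9.79 ± 1.63 CPM in SE rats (SD, n = 4 each). Its log2 fold change was 0.83 (standard error 0.22, adjusted p = 0.421 in edgeR's quasi-likelihood test). Control rat 2 had 48 tags there and SE rat 7 had 39, which again does not follow the groups. Taken as 1 sum, the 26 regions within 25 kb of the Sept5 region, without the region itself, held 0.158 ± 0.00578% of the tags of chromosome 11 in control and 0.187 ± 0.0123% in SE rats (SD, n = 4 each, exact two-sided permutation test, p = 0.0286, the smallest that 4 rats against 4 allow). This sum was chosen after the values of the region 19.1 kb away, which is part of it, had been seen. Without that region the share was 0.145 ± 0.00637% in control and 0.162 ± 0.0135% in SE rats (SD, n = 4 each, exact two-sided permutation test, p = 0.0857), and the groups overlapped.

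The Rtn4r region lay 484.2 kb further on, from 84850830 to 84851551. Control rats had 9, 6, 5 and 11 tags and SE rats 11, 21, 17 and 21 tags. SE rat 6 was the lowest of its group, at 2.54 CPM, just above the highest control rat at 2.27 CPM. The group values were 1.81 ± 0.491 CPM in control and 3.92 ± 1.03 CPM in SE rats (SD, n = 4 each), and the log2 fold change was again 1.09 (standard error 0.35). Control rat 2 had 23 tags and SE rat 7 had 58.

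The nearest tested region on each side of the Rtn4r region had a smaller difference of the same sign. The nearest tested region before it, from 84849380 to 84849825, held 9, 10, 7 and 9 tags in control and 11, 15, 6 and 13 in SE rats, with a log2 fold change of 0.28 (standard error 0.38). There the groups overlapped, with SE rat 9 at 1.45 CPM below every control rat. The nearest after the Rtn4r region, from 84855281 to 84855600, held 8, 4, 4 and 10 tags in control and 12, 9, 9 and 15 in SE rats, with a log2 fold change of 0.70 (standard error 0.40). In normalized counts the SE rats were all above the control rats in the latter, which did not pass the threshold. Of the 14 tested regions within 25 kb of the Rtn4r region, without the region itself, 12 had a log2 fold change above 0, with a median of 0.36 and a range from -0.22 to 1.16, against 11 of 16 with a median of 0.08 around the Sept5 region. The summed share of chromosome 11 tags in all 19 regions within 25 kb was 0.121 ± 0.0165% in control and 0.162 ± 0.0130% in SE rats (SD, n = 4 each, exact two-sided permutation test, p = 0.0286, and also 0.0286 after adjustment over these 2 flanks). That adjustment could not change the value, since both flanks had the smallest p that 4 rats against 4 allow. This sum, too, was chosen after the values had been seen and includes the region from 84875504 described next. Without it the share was 0.116 ± 0.0146% in control and 0.151 ± 0.00981% in SE rats (SD, n = 4 each), the groups were still apart, and the same exact permutation test gave p = 0.0286.

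Further along lay a pair of regions past the threshold with higher capture in SE rats, with other regions between them. The region from 84875504 to 84876178, 24.7 kb from the start of the Rtn4r region, held 9, 14, 8 and 2 tags in control and 15, 20, 12 and 33 in SE rats. Here the groups overlapped, since SE rat 9 lay below control rat 3, and the log2 fold change of 1.16 (standard error 0.36, adjusted p = 0.519 in the edgeR test) rested on control rat 5 and SE rat 10. It was 0.78 without control rat 5 and 0.91 without SE rat 10, both no longer past the threshold. Control rat 2 had 16 tags in this region and SE rat 7 had 1 tag, the reverse of the order of the groups. The region from 84965640 to 84966319, 114.8 kb from the start of the Rtn4r region, held 13, 12, 9 and 11 tags in control and 23, 21, 20 and 29 in SE rats. Its groups were tight and apart, with 2.68 ± 0.441 CPM in control and 5.18 ± 0.312 CPM in SE rats (SD, n = 4 each). The log2 fold change was 0.95 (standard error 0.30, adjusted p = 0.519 in the same edgeR test). Control rat 2 had 13 tags there and SE rat 7 had 30. Scaled to the library totals, SE rat 7 was at 2.05 CPM, above control rat 2 at 1.82 CPM. It lay within the range of the compared control rats, 1.63 to 2.26 CPM on that scale.

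The region with lower capture in SE rats stood in the sparse first part of the interval, from 84136226 to 84136729, with 4 other regions of the table within 50 kb. It held 14, 23, 13 and 18 tags in control and 7, 5, 3 and 10 tags in SE rats. Every SE rat was below every control rat. The normalized count was 4.04 ± 1.11 CPM in control and 1.36 ± 0.516 CPM in SE rats (SD, n = 4 each). The log2 fold change was -1.52 (standard error 0.37, adjusted p = 0.339 in the edgeR test). Control rat 2 had 10 tags and SE rat 7 had 1 tag, the same order as the groups.

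**Figure D2:**
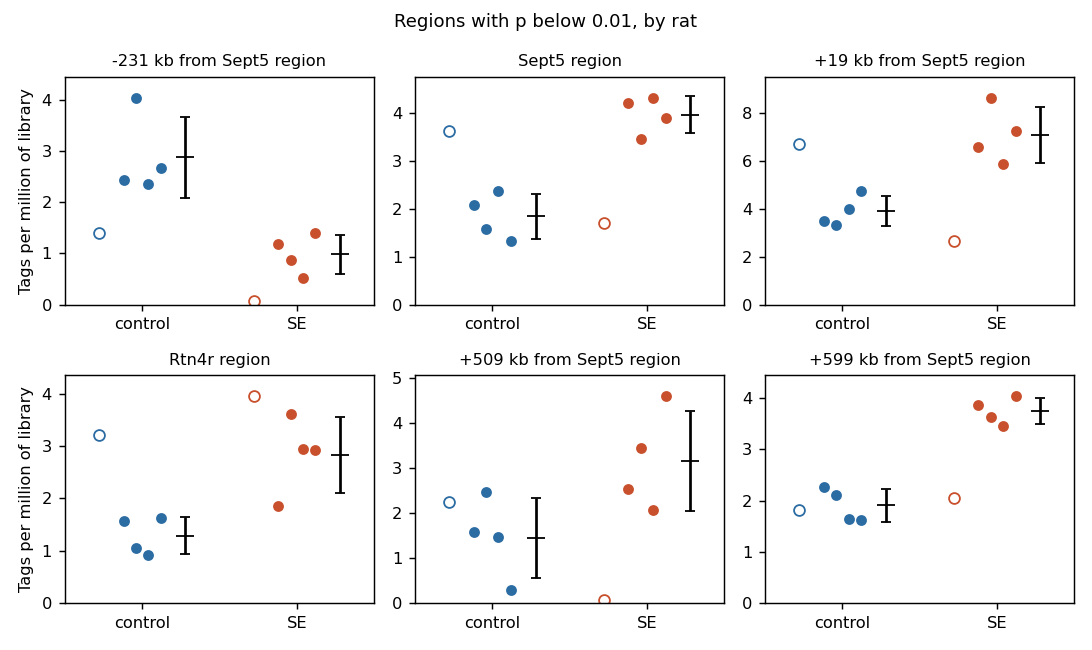
CPM, here relative to all tags of the library, in the 6 regions with an unadjusted p below 0.01, 1 point per rat. Filled points are the 8 rats compared, bars their mean and SD (n = 4), and open points control rat 2 and SE rat 7, labelled discarded. Titles give the distance from the Sept5 region. In 5 panels all filled SE points lie on one side of all filled control points, and at +509 kb they overlap.

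Just outside the threshold most signs were the same. An unadjusted p from 0.01 to 0.05 was found in 12 of the 256 regions (4.69%), 10 with a log2 fold change above 0 and 2 below. Over all tested regions 5.25% lay in this range, 6848 above 0 and 8488 below. Nearest to the threshold, and chosen for that after their values were seen, was the pair of regions that start at 84396676 and 84813867, whose log2 fold changes were 0.66 (standard error 0.25) and 0.86 (standard error 0.33).

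The most strongly captured regions of the interval had small differences, and 0 of the 3 passed the threshold. The widest region, from 84755134 to 84757982, was also the highest at a mean of 11.4 CPM, with 46, 35, 34 and 60 tags in control and 40, 57, 55 and 72 tags in SE rats, and the fitted log2 difference was 0.28 (standard error 0.19). The region from 84548046 to 84549944, with 60, 45, 41 and 70 tags in control and 56, 26, 49 and 44 in SE rats, had a log2 fold change of -0.37 (standard error 0.20). For the region from 84912751 to 84915120 the value was 0.19 (standard error 0.20), with 33 to 45 tags in control and 38 to 52 in SE rats. With 26 to 72 tags in the 8 libraries used, these 3 had smaller standard errors than the 6 regions past the threshold.

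Between the Sept5 and Rtn4r regions lay 194 regions, 110 of them tested. A log2 fold change above 0 was found in 73 of these (66.4%), beside 50.3% of all tested regions, with a median of 0.12. With higher capture 1 passed the threshold, the one 19.1 kb from the Sept5 region, beside 0.584% of all tested regions. Every SE rat was above every control rat in 6 of the 110, beside 1.69% of all tested regions, and below in 1, beside 1.94%. The 194 regions together held 1.17 ± 0.0839% of the tags of chromosome 11 in control and 1.34 ± 0.0608% in SE rats (SD, n = 4 each, exact two-sided permutation test, p = 0.0571), with control rat 1 level with SE rat 8 at 1.29%.

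Windows of 100 kb showed where along the interval the tags differed. The share of chromosome 11 tags was higher on average in SE rats in 12 of 16 windows, and in 4 windows every SE rat was above every control rat. One of these, from 84300000 to 84400000, holds the Sept5 region, with 0.286 ± 0.0133% in control and 0.352 ± 0.0131% in SE rats (SD, n = 4 each). Another, from 84800000 to 84900000, holds the Rtn4r region, with 0.250 ± 0.0236% in control and 0.320 ± 0.0227% in SE rats (SD, n = 4 each). The remaining 2 followed directly, from 84900000 to 85000000, where the SE mean was 1.21 times the control mean, and from 85000000 to 85100000, where it was also 1.21 times. Since the Sept5 and Rtn4r regions had chosen the interval, the windows were tested without them, a setting chosen after seeing the data. The shares were then 0.280 ± 0.0123% in control and 0.339 ± 0.0129% in SE rats in the window of Sept5, and 0.245 ± 0.0233% and 0.310 ± 0.0225% in that of Rtn4r (SD, n = 4 each), with groups still apart in the same 4 windows. Each of the 4 had the smallest p that the exact two-sided permutation test allows, 0.0286, and an adjusted p of 0.114 over the 16 windows, so no window passed after adjustment. Windows of 100 kb were not taken on the rest of chromosome 11, so no share of such windows stands beside these 4. Among 54 blocks of 1.6 Mb on the chromosome (described below), groups were apart in 10 with a higher and in 17 with a lower share in SE rats. The 4 windows of the sparse first part had lower means in SE rats, with groups that overlapped. Together they held 0.150 ± 0.00682% in control and 0.129 ± 0.0130% in SE rats (SD, n = 4 each, exact two-sided permutation test, p = 0.0857), and 13 of their 14 tested regions had a log2 fold change below 0.

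**Figure D3:**
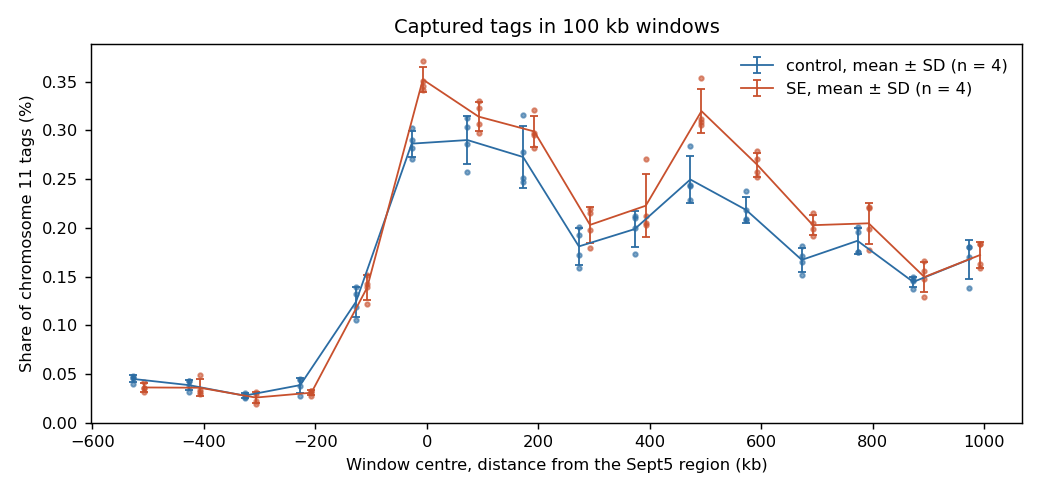
Share of chromosome 11 tags (%) in each of 16 windows of 100 kb, against the distance in kb of the window's centre from the Sept5 region. Lines and bars give the mean and SD of 4 control and 4 SE rats and points the single rats. The groups are furthest apart at the window of the Sept5 region and in the 3 windows that begin with that of the Rtn4r region.

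For a direct comparison with the rest of the chromosome, the share of all chromosome 11 tags that lay in the interval was taken in each library. Control rats 1, 3, 4 and 5 had 2.84, 2.64, 2.51 and 2.55%, and SE rats 6, 8, 9 and 10 had 3.01, 2.85, 2.91 and 3.12%. The groups did not overlap, but control rat 1 and SE rat 8 were nearly level. The means were 2.64 ± 0.147% in control and 2.97 ± 0.119% in SE rats (SD, n = 4 each), a difference of 0.335 percentage points (exact two-sided permutation test, p = 0.0286). Without the Sept5 and Rtn4r regions, a setting chosen after seeing the data, the difference was 0.322 percentage points and the same exact test gave p = 0.0571, since SE rat 8 then fell level with control rat 1 at 2.83%. In the 191 untested regions the share was 0.607 ± 0.0361% in control and 0.673 ± 0.0365% in SE rats (SD, n = 4 each, exact two-sided permutation test, p = 0.0857). Chromosome 11 outside the interval held 2.95 ± 0.0427% of all autosomal tags in control and 2.85 ± 0.0245% in SE rats (SD, n = 4 each). Every SE rat was below every control rat there (exact two-sided permutation test, p = 0.0286). Of all autosomal tags the interval held 0.0798 ± 0.00341% in control and 0.0871 ± 0.00306% in SE rats (SD, n = 4 each, same exact test, p = 0.0286). The ratio of SE to control was thus 1.09, against 1.13 for chromosome 11 tags.

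In the 8 libraries compared, the interval share of chromosome 11 tags moved together with a measure taken on the rest of the chromosome. Outside the interval, the log2 CPM of a library, less the mean of the 8 rats, was regressed over the tested regions of chromosome 11 on log2 of the local region density. This slope was 0.0199, -0.0586, -0.123 and -0.0986 in control rats 1, 3, 4 and 5, and 0.0525, 0.0276, 0.0819 and 0.0987 in SE rats 6, 8, 9 and 10. SE libraries thus held relatively more tags where regions are dense, outside the interval too, and control rat 1, with the highest interval share of its group, also had the highest slope. The part of this in the interval share was not tested. When offsets removed the trend of each library on density and mean count, the calls in the interval were again 5 higher and 1 lower, with 6 regions shared between the fits. On the rest of the chromosome the calls went from 26 higher and 147 lower to 15 higher and 71 lower. The median log2 fold change was then 0.08 in the interval and -0.04 on the rest of the chromosome.

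**Figure D4:**
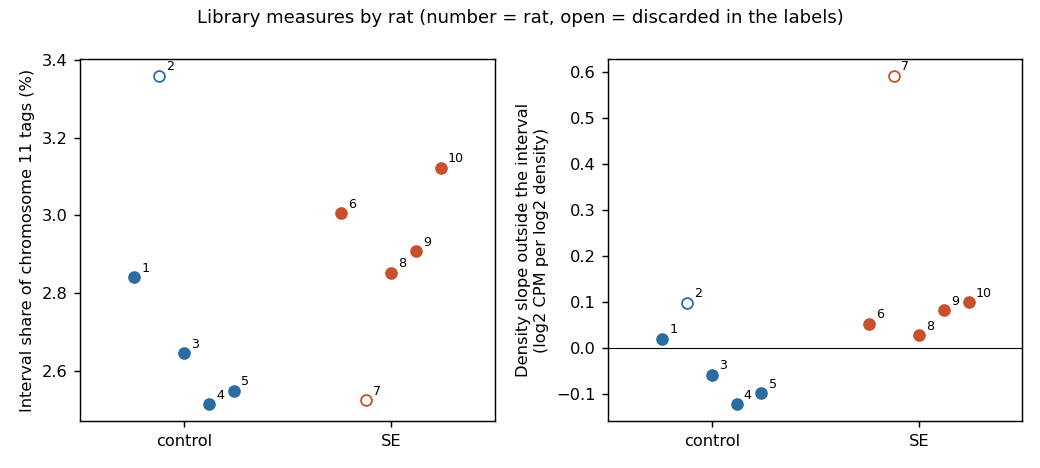
Left, share of chromosome 11 tags in the interval (%), right, slope of log2 CPM on log2 region density outside the interval, 1 point per rat with its number. Filled points are the rats compared and open points the discarded rats. On both sides the filled SE points lie above the filled control points, with control rat 1 and SE rat 8 next to each other, while control rat 2 has the highest share of all.

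In the interval share the discarded rats did not follow the groups. Control rat 2 had 3.36% of its chromosome 11 tags in the interval, above all SE rats, and SE rat 7 had 2.52%, below all control rats but rat 4. Their density slopes were 0.0984 and 0.593, so in rat 7 the highest slope went with a low share. With all 10 libraries 0 of 252 tested regions of the interval were higher in SE rats at an unadjusted p below 0.01, beside 0.282% of all regions tested there, and 1 was lower, beside 0.215%. That 1 was again the region from 84136226 to 84136729 (log2 fold change -1.79). The log2 fold changes of the 5 regions with higher capture kept their sign and lay between 0.41 and 0.81, and in 0 of the 6 regions were the groups of 5 apart. Scaled to the library totals, SE rat 7 was on the side of control rat 2 that the fold change gave in 3 of the 6 regions.

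Chromosome 11 was also divided into blocks of 1.6 Mb counted from the interval, of which 54 held at least 50 tested regions. The median log2 fold change ran from -0.60 to 0.11 over these blocks, and the interval was the highest, next to a block at 0.10. It also had the highest ratio of the SE to the control share, 1.13. Without the Sept5 and Rtn4r regions the median of 0.11 and the ratio of 1.12 were still the highest. Of regions with higher capture it held 5, or 3 without these, and 1 other block also held 3. By its number of regions it ranked at place 14. A log2 fold change above 0 was found in 63.3% of its tested regions. In the block from 35800000 to 37400000 it was 63.7%, so by this measure the interval was not the highest. The share of tags was higher in every SE than in every control rat in 10 blocks, the interval included, and lower in 17. Blocks with few regions had the lowest medians and dense blocks had medians near or above 0.

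**Figure D5:**
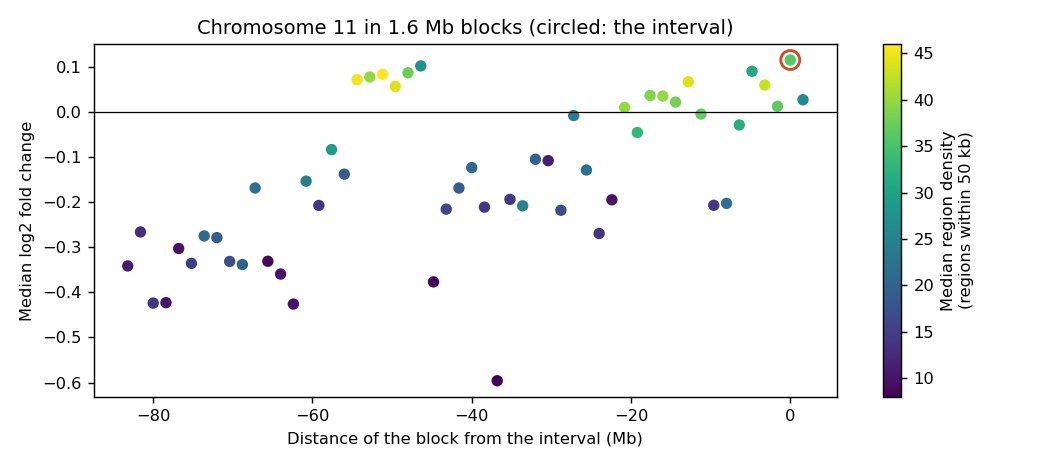
Median log2 fold change (SE over control) of the tested regions in 54 blocks of 1.6 Mb, against the distance of the block from the interval in Mb. Colour gives the median number of other regions within 50 kb. The circled interval is the highest, at 0.11, and blocks of low density lie below 0.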

How the data were processed

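Per the labels and the methods, DNA of each rat was captured with MethylMiner and sequenced as single reads. The authors mapped tags to RN4 (BWA), called regions between every 2 libraries (MACS), joined these (BEDTools), left out duplicate tags and deposited raw tag counts per region and library. Regions were therefore selected for a difference between some pair of libraries. The coordinates are printed as deposited.

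The filter kept regions at or above the 50th percentile of the summed count of the 8 libraries. The 291987 kept were scaled by TMM and tested by quasi-likelihood, two-sided, with edgeR 4.0.16 in R 4.3.3, with group as the only term. As in the methods the threshold was an unadjusted p of 0.01, and Benjamini-Hochberg adjusted p cover all tested regions. CPM is relative to tags in tested regions. Standard errors are the log2 fold change over the root of F. Shares of tags were compared by exact permutation of group means. Density slopes used log2(CPM + 0.5) and library totals. No 2 of the 8 libraries were alike by chi-square (smallest value per degree of freedom 1.27). Scripts were tested on simulated data.

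Named regions were those of Sept5 and Rtn4r with their nearest tested neighbours, all with p below 0.01, the 3 of highest mean CPM and the widest. Members, lists and rules were chosen with earlier results of these data known. Alternatives were edgeR's exact test, DESeq2 1.42.0, library totals, upper quartile, density offsets, other filters, all 10 libraries, each rat left out and, chosen after seeing the data, sums and counts without the Sept5 and Rtn4r regions or without all regions with p below 0.01. No sequence is printed, since no RN4 genome was used here. The other models and the mRNA libraries were not analysed here.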

Additional observations from a re-analysis of the deposited data

Results flagged for a closer look

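Of 60 groups of 4 rats, 4 had 1 rat far from the other 3 by Dixon's criterion, where chance alone flags about 1 in 20. Control rat 3 had 5.68 CPM in the region from 84136226 to 84136729, above the other control rats, which adds to the difference of the group means there. In the widest region, from 84755134 to 84757982, SE rat 6 had 9.25 CPM and stood below the other SE rats. SE rat 10 had 0.271% of the chromosome 11 tags in the window from 84700000 to 84800000 and 0.354% in the window from 84800000 to 84900000, above the other SE rats in both, and in the latter all SE rats were above the control rats.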

How the results depend on the processing

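The counts of 5 regions with higher and 1 with lower capture were the same with edgeR's exact test, DESeq2 and density offsets, and 7 and 1 with library totals and upper quartile. On the rest of chromosome 11 the quasi-likelihood test called 26 higher and 147 lower. There the exact test gave 22 and 136, DESeq2 gave 3 and 41, and density offsets gave 15 and 71. Library totals gave 31 and 136 there, and upper quartile 31 and 132. Without the Sept5 and Rtn4r regions (chosen after seeing the data) 3 were higher. Without a region filter 8 of 447 regions were higher and 1 lower, beside 55 and 230 of 17764 on the rest of the chromosome. With at least 10 counts in every library 2 of 82 tested regions were higher and 0 lower, beside 9 and 26 of 1880. Only 1 call was then shared with the main fit, the region from 84385787 to 84387130. The Sept5 and Rtn4r regions and the other regions called in the main fit each had a library below 10 tags and were not tested there. With each rat left out in turn 5 to 7 were higher and 1 to 2 lower, 2 without control rat 3, control rat 5 or SE rat 10. On the rest of the chromosome 22 to 30 were then higher and 109 to 172 lower. Without control rat 4 or SE rat 8 the Rtn4r region missed the threshold, at log2 fold changes of 0.96 in both.

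With all 10 libraries 0 were higher, the median log2 fold change of the interval was -0.037, the difference in the interval share was 0.101 percentage points (exact permutation test, p = 0.579), and 0 windows had groups apart. With the 8 libraries compared, the difference in the interval share was 0.335 percentage points. It was 0.304 without the 6 regions with p below 0.01 and 0.322 without the Sept5 and Rtn4r regions (both chosen after seeing the data, exact permutation p = 0.0571). With each of the 8 rats left out it was between 0.285 and 0.403. The exact permutation p was then 0.0286 without any 1 control rat and 0.0571 without any 1 SE rat, although the groups stayed apart. The cause of these changes was not tested.

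Among the named regions signs turned in 3 neighbours with small differences. The region from 84365301 gave -0.0051 with DESeq2, -0.057 with density offsets, -0.559 with all 10 libraries and -0.268 to 0.290 with each rat left out. The region from 84367832 gave -0.152 with all 10 libraries and -0.0459 to 0.293 with each rat left out, and the region from 84849380 gave -0.387 with all 10. The numbers of the rats are not shared between groups, so nothing pairs them. Tag counts near 10 per region limit single regions more than sums over windows.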
